A study of Mus musculus with 9 samples.

Results

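A set of 10 genes that detect nucleic acid in places where it marks infection or damage, or that pass that signal on, was followed across mouse lung organoids: Cgas, Sting1, Zbp1, Rigi, Mavs, Tlr3, Tbk1, Ikbke, Irf3 and Trex1. They were the rows of both deposited comparison tables whose symbol was one of these 10 names, out of 57010 rows in each table. Of the 10 genes, 9 had a fold change and an adjusted p in both tables, and Trex1 was listed at a mean of 0 in both. Organoids are small multicellular cultures that keep some of the structure of a tissue. There were 3 groups with 3 libraries each, 9 in all: organoids of normal mouse lung (Normal), organoids of small cell lung cancer, a neuroendocrine tumour of the lung (SCLC), and SCLC organoids that had been given an agent called GSK in the labels (GSK). What GSK is, its dose, the length of treatment, and the strain, sex, age and tumour genotype behind each group were not found in the sources used. The study set SCLC beside Normal and GSK beside SCLC, so both comparisons used the same SCLC libraries. Whether the 3 libraries of a group came from separate cultures or animals is not given either, and the p-values measure only the spread between these libraries, which may be technical.

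Cells carry sensors for DNA and RNA outside their usual compartments. The enzyme cGAS, made from Cgas, binds DNA and makes a cyclic dinucleotide, cGAMP, that activates the adaptor STING (Sting1). The helicase RIG-I (Rigi) binds viral-type RNA in the cytosol and signals through the mitochondrial adaptor MAVS (Mavs), while TLR3 (Tlr3) reads double-stranded RNA inside endosomes, so it is not a cytosolic sensor in the strict sense. These routes meet at the kinases TBK1 (Tbk1) and IKK-epsilon (Ikbke), which phosphorylate the transcription factor IRF3 (Irf3) to switch on type I interferon genes. ZBP1 (Zbp1) binds nucleic acid in the left-handed Z form and engages the kinase RIPK3 in cell death, and the exonuclease TREX1 (Trex1) degrades stray DNA before it is sensed. Genes of this set known to be raised by interferon include Rigi, Zbp1, Tlr3 and Ikbke. This is not a full list, and members left out of it, such as Cgas, are not thereby said to lack that response.

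Stretches of promoter are shown for Rigi and Ikbke, which were far lower in SCLC and far higher with GSK, and for Cgas, which was higher in SCLC and lower with GSK. Each runs from 100 bases before to 20 bases after the annotated transcription start, read along the gene, from RefSeq on build GRCm38.p6. Capitals mark the match to GAAANNGAA, the core of the interferon-stimulated response element.
Rigi (chr4:40239806-40239925, minus strand): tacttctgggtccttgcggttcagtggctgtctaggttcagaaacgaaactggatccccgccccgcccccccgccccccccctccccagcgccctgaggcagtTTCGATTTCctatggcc
Ikbke (chr1:131279544-131279663, minus strand): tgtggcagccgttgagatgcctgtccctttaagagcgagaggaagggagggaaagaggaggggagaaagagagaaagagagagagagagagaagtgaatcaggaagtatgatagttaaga
Cgas (chr9:78443218-78443337, minus strand): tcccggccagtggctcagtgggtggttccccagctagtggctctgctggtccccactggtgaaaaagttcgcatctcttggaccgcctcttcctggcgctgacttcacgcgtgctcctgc
The RefSeq table held 9 windows of 250 bases before to 50 after the start for 8 of the 10 genes, and none for Sting1 and Zbp1. On either strand, GAAANNGAA was found in the window of 1 of these 8 genes, Rigi. The match reads on the strand opposite to the gene, so the capitals above show its reverse complement. Read along the gene, the first of these capitals lies at position 4 counted from 1 at the start. The second motif searched, TTCNNNGAA, the gamma-activated site bound by STAT proteins, matched in 0 of 8. Over all 32851 promoter windows of that length, 8.56% held the first motif and 8.3% the second. A match is a description of the letters and not a measured binding site.

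The values came from comparison tables, which give each gene's mean normalized count over 6 libraries, a log2 fold change with its standard error and an adjusted p, and no value for a single library. Group means below are therefore implied by that mean and fold change, the spread between libraries is seen only through the standard error, and whether single libraries overlap was not analysed here. The implied normalized counts summed to 44.7 M (M, mega) per library for Normal and 42.0 M for SCLC per the authors' deposited table of that pair, and to 45.3 M for SCLC and 31.9 M for GSK per the authors' deposited table of the other. Markers fixed for the labelled cell types were found where the labels place them: 6 of 6 neuroendocrine markers were higher in SCLC than in Normal (summed level 36.5 in Normal and 134465 in SCLC), and 6 of 6 lung epithelium markers were lower (2680090 and 494), per the authors' deposited table. Markers of other cells moved too. Of 8 immune markers tested, 7 were lower in SCLC and Flt3 was higher (summed level of the 11 markers 5038 in Normal and 127 in SCLC), and 7 of 7 fibroblast markers were lower (9633 and 26.7), per the authors' deposited table. General epithelial markers were lower in SCLC for 4 of 4 (70763 and 7454), per the authors' deposited table. Endothelial markers were lower for 3 of 5, and 2 did not pass (115 and 49.9), per the authors' deposited table. In GSK libraries, 11 of 11 immune markers were higher than in SCLC (summed level 138 in SCLC and 28987 in GSK), as were 7 of 7 fibroblast markers (28.8 and 14713), 5 of 5 endothelial markers (53.2 and 15213) and 6 of 6 lung epithelium markers (532 and 8939), per the authors' deposited table. The pan-leukocyte gene Ptprc, with Adgre1, Itgam, Marco, Cd3e and Nkg7, lay under a mean of 1 count in SCLC, while Ptprc had an implied mean of 12562 in GSK, per the authors' deposited table. Of 6 neuroendocrine markers, 4 were lower with GSK, among them Insm1, Syp and Scg3 (summed level of the 6 markers 145075 in SCLC and 62265 in GSK), and 4 of 4 general epithelial markers did not pass, also at an unadjusted p (summed level 8050 and 5471), per the authors' deposited table. Groups also differed in sex-linked RNA: Xist, which coats the silenced X chromosome, had an implied mean of 31710 in Normal, 1.76 in SCLC and 15.7 in GSK, and the Y-linked gene Ddx3y of 0.411, 1009 and 3868, per the authors' deposited tables. Both were chosen after their values were seen. The part of these cell type and sex differences in the results below was not tested, and in such bulk libraries fewer cells of a type and less RNA per cell cannot be told apart.

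**Figure D1:**
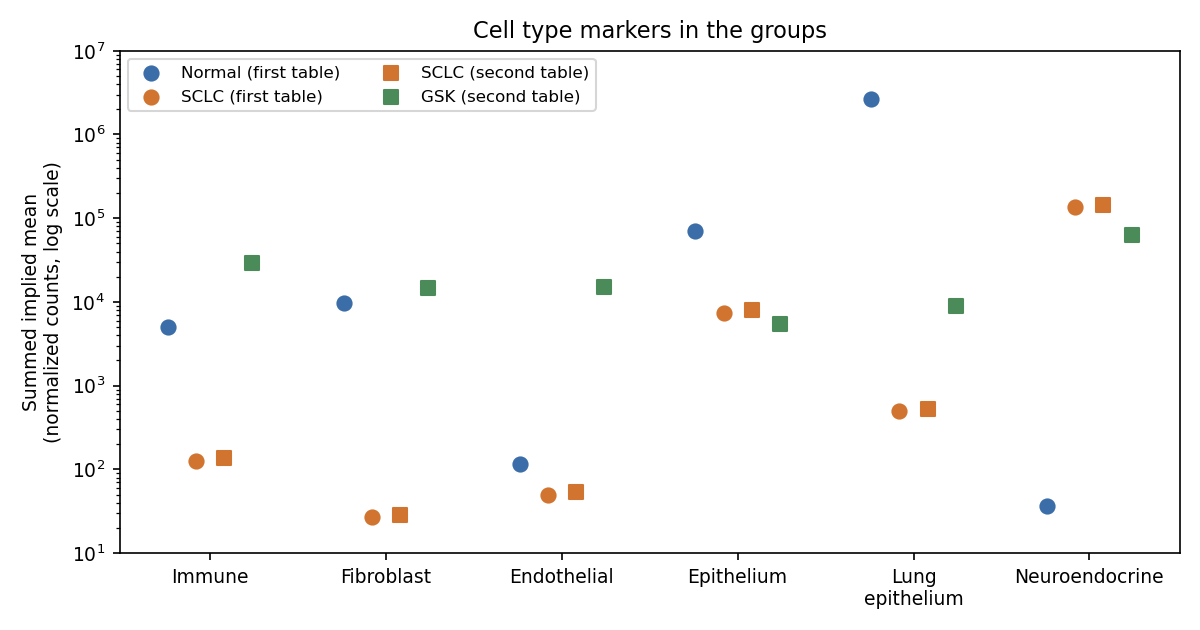
Summed implied group means of 6 marker lists on a log axis, in normalized counts, 1 point per group and table, with no error since the tables give none for a sum. Immune, fibroblast and endothelial markers are near the bottom of the axis in SCLC in both tables, and their sums reach 28987, 14713 and 15213 in GSK.

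SCLC organoids carried much less RNA for RIG-I, TLR3, ZBP1 and IKK-epsilon than normal lung organoids, and more RNA for the DNA sensor cGAS. Of the 9 genes tested, Rigi, Ikbke, Tlr3, Zbp1, Tbk1, Sting1 and Irf3 fell, Cgas rose and Mavs did not pass at an adjusted p of 0.05, per the authors' deposited table. The falls ran from 88.7-fold for Ikbke to 1.90-fold for Irf3, and the rise of Cgas was 3.04-fold, per the authors' deposited table. Among all 24719 genes tested, 50.4% passed, 25.3% as higher and 25.1% as lower, per the authors' deposited table. The median log2 fold change of the 9 genes was -1.29, against 0.10 over all genes tested, per the authors' deposited table.

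Cgas, which encodes the DNA sensor cGAS, had an implied mean of 145 normalized counts in Normal and 440 in SCLC per the authors' deposited table. This is a log2 fold change of 1.60 ± 0.36 (SE), or 3.04-fold with a 95% interval of 1.86 to 4.97 (adjusted p = 3.5e-05), per the authors' deposited table. Cgas was thus higher in SCLC, and it was the only one of the 9 genes to pass in that direction. Sting1, which encodes the adaptor that cGAMP binds, had an implied mean of 462 in Normal and 230 in SCLC per the authors' deposited table. This gave a log2 fold change of -1.01 ± 0.41, a 2.01-fold lower level with an interval of 1.14 to 3.53 (adjusted p = 0.0321), per the authors' deposited table. The sensor and its adaptor therefore changed in opposite directions, and the call on Sting1 was the weakest of the 8. Scaled to total counts, Sting1 no longer passed (adjusted p = 0.0533). Zbp1, the Z-form sensor, had an implied mean of 152 in Normal and 5.82 in SCLC per the authors' deposited table. On the log2 scale the change was -4.71 ± 1.01, or 26.2-fold lower with an interval of 6.63 to 103 (adjusted p = 1.19e-05), per the authors' deposited table. Zbp1 had the largest standard error of the 9, so the size of its fall is the least certain.

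The RNA receptor genes Rigi and Tlr3 were lower in SCLC, and Mavs, the adaptor of RIG-I, did not pass. Rigi had an implied mean of 2462 in Normal and 52.6 in SCLC per the authors' deposited table. The log2 fold change was -5.55 ± 0.30, or 46.8-fold lower with an interval of 31.1 to 70.4 (adjusted p = 1.16e-73), which ranked 139 of 24719 genes by the size of the statistic, per the authors' deposited table. Of the 9 genes, Rigi had the highest statistic in size. Tlr3, the endosomal receptor for double-stranded RNA, had an implied mean of 444 in Normal and 16.7 in SCLC per the authors' deposited table. The fold change on the log2 scale was -4.74 ± 0.75, or 26.6-fold lower with an interval of 9.61 to 73.8 (adjusted p = 1.69e-09), per the authors' deposited table. Rigi and Tlr3, which signal through different adaptors, were both at low levels in SCLC. Mavs, the mitochondrial adaptor on which RIG-I acts, had an implied mean of 1678 in Normal and 1770 in SCLC, per the authors' deposited table. As a log2 fold change this was 0.08 ± 0.23 with an interval of -0.38 to 0.54 (adjusted p = 0.806) per the authors' deposited table, and it was -0.10 when centred on genes with a mean of at least 100. The interval leaves out changes of Mavs as large as those of Rigi or Tlr3.

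Of the kinases, Ikbke had an implied mean of 919 in Normal and 10.4 in SCLC per the authors' deposited table. This gave a log2 fold change of -6.47 ± 0.39, or 88.7-fold lower with an interval of 52.4 to 150.4 (adjusted p = 2.66e-60), per the authors' deposited table. This was the largest fold change of the 9 in this comparison, and it ranked 205 of 24719 genes by the size of the statistic per the authors' deposited table. Its relative Tbk1 fell less: the implied mean was 2397 in Normal and 982 in SCLC per the authors' deposited table. The log2 fold change of Tbk1 was -1.29 ± 0.24, or 2.44-fold lower with an interval of 1.76 to 3.38 (adjusted p = 3.52e-07), per the authors' deposited table. The intervals of the kinases' fold changes do not meet, and a test of the difference was not run. Irf3, the transcription factor that both kinases phosphorylate, had an implied mean of 2148 in Normal and 1133 in SCLC per the authors' deposited table. On the log2 scale the change was -0.92 ± 0.32, or 1.90-fold lower with an interval of 1.23 to 2.92 (adjusted p = 0.00877), per the authors' deposited table. With a t distribution of 4 degrees of freedom in place of the normal, the calls on Sting1 and Irf3 ended (adjusted p = 0.152 and 0.105), while Rigi, Ikbke, Tlr3 and Zbp1 passed under all 7 alternatives run. In this comparison the immune markers fell from a summed level of 5038 to 127 and the lung epithelium markers from 2680090 to 494, and their part in these falls was not tested.

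**Figure D2:**
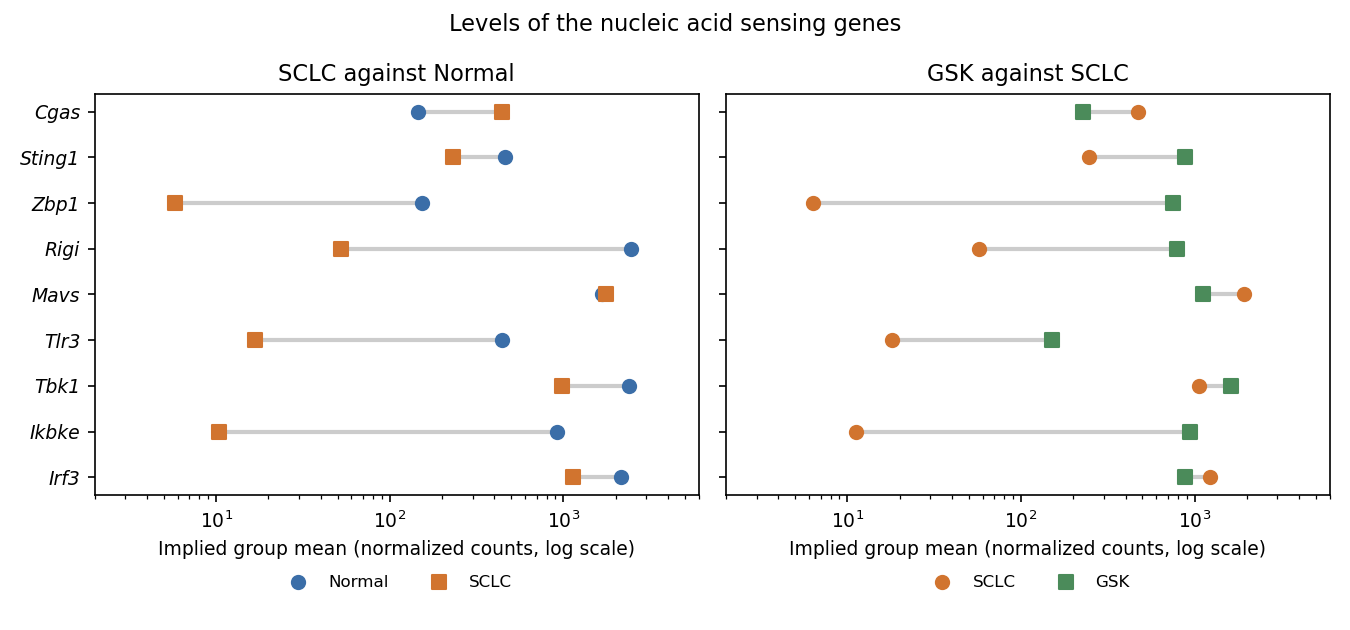
Implied group means of the 9 genes with a fold change, in normalized counts on a log axis, for SCLC against Normal (left) and GSK against SCLC (right); a grey line joins the groups of a comparison, and the tables give no error for a group mean. Zbp1, Rigi, Tlr3 and Ikbke lie at 5.82 to 52.6 in SCLC and at 152 to 2462 in Normal, while Mavs lies at 1678 and 1770.

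SCLC organoids treated with GSK carried more RNA for the sensors ZBP1, RIG-I and TLR3, for the kinase IKK-epsilon and for STING than SCLC organoids, and less for cGAS. Of the 9 genes tested, Zbp1, Ikbke, Rigi, Tlr3 and Sting1 rose, Cgas and Mavs fell, and Tbk1 and Irf3 did not pass at an adjusted p of 0.05, per the authors' deposited table. The rises ran from 119-fold for Zbp1 to 3.59-fold for Sting1, and the falls were 2.08-fold for Cgas and 1.72-fold for Mavs, per the authors' deposited table. Among all 28376 genes tested, 37.1% passed, 21.6% as higher and 15.5% as lower, per the authors' deposited table. The median log2 fold change of the 9 genes was 1.84, against 0.24 over all genes tested, per the authors' deposited table. Because this comparison and the previous one share the SCLC libraries, a low SCLC value enters both, and opposite signs between them are not independent. From SCLC to GSK, summed immune markers also went from 138 to 28987, fibroblast markers from 28.8 to 14713 and neuroendocrine markers from 145075 to 62265. The part of this in the changes above was not tested.

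The counts in this comparison depended on scaling. Scaling to equal totals adds 0.51 to every log2 fold change here and 0.09 in SCLC against Normal. Centring takes off the median of the genes whose mean is 100 or more, which was -0.25 here and 0.18 in the other comparison, per the authors' deposited tables. The whole table had 6129 genes higher and 4404 lower as deposited, 8738 and 1970 when scaled to total counts, and 7242 and 3077 when centred, so 58.2%, 81.6% and 70.2% of the calls were higher, per the authors' deposited table. Of the 9 genes, 5 rose and 2 fell as deposited, 6 rose and 0 fell when scaled to total counts, and 6 rose and 1 fell when centred. The difference lay in the calls on Tbk1, Cgas and Mavs. Irf3, which had the smallest fold change of the 9 as deposited (-0.47), did not pass under either scaling.

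Cgas had an implied mean of 475 in SCLC and 228 in GSK per the authors' deposited table. The log2 fold change was -1.06 ± 0.34, or 2.08-fold lower with an interval of 1.31 to 3.30 (adjusted p = 0.00695), per the authors' deposited table, and the call ended when scaled to total counts (-0.55, adjusted p = 0.197). Sting1, by contrast, had an implied mean of 247 in SCLC and 885 in GSK per the authors' deposited table. The adaptor's log2 fold change was 1.84 ± 0.47, or 3.59-fold higher with an interval of 1.88 to 6.83 (adjusted p = 0.000535), per the authors' deposited table. Sensor and adaptor again lay on opposite sides of 0. Zbp1 went from an implied mean of 6.31 in SCLC to 751 in GSK per the authors' deposited table. The fold change on the log2 scale was 6.89 ± 0.71, or 119-fold higher with an interval of 45.4 to 312 (adjusted p = 1.49e-20), the largest fold change of the 9, per the authors' deposited table. Beside these rises, the immune markers rose from a summed level of 138 to 28987, and their part in the rises was not tested.

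On the RNA side, Rigi had an implied mean of 57.0 in SCLC and 795 in GSK per the authors' deposited table. As a log2 fold change this was 3.80 ± 0.56, or 13.9-fold higher with an interval of 6.52 to 29.8 (adjusted p = 1.96e-10), per the authors' deposited table. Tlr3 had an implied mean of 18.1 in SCLC and 151 in GSK per the authors' deposited table. This gave a log2 fold change of 3.06 ± 0.86, or 8.33-fold higher with an interval of 2.60 to 26.6 (adjusted p = 0.00163), per the authors' deposited table. Rigi and Tlr3 were thus both higher with GSK, and the wide interval of Tlr3 takes in the fold change of Rigi. Mavs had an implied mean of 1913 in SCLC and 1114 in GSK per the authors' deposited table. On the log2 scale the change was -0.78 ± 0.28, or 1.72-fold lower with an interval of 1.18 to 2.50 (adjusted p = 0.0151), per the authors' deposited table. The call on Mavs ended when scaled to total counts (-0.27, adjusted p = 0.458) and when centred (-0.54, adjusted p = 0.118).

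Ikbke had an implied mean of 11.1 in SCLC and 945 in GSK per the authors' deposited table. The log2 fold change was 6.41 ± 0.56, or 84.9-fold higher with an interval of 39.7 to 181 (adjusted p = 3.03e-28), which ranked 203 of 28376 genes by the size of the statistic, per the authors' deposited table. Tbk1, the more widely expressed of the kinases, had an implied mean of 1055 in SCLC and 1618 in GSK per the authors' deposited table. The fold change on the log2 scale was 0.62 ± 0.33 with an interval of -0.03 to 1.26 (adjusted p = 0.134) per the authors' deposited table, and it passed as higher when scaled to total counts (1.12, adjusted p = 0.00287) and when centred (0.86, adjusted p = 0.0279). Irf3 had an implied mean of 1218 in SCLC and 877 in GSK per the authors' deposited table. As a log2 fold change this was -0.47 ± 0.35 with an interval of -1.16 to 0.21 (adjusted p = 0.301) per the authors' deposited table, and it was 0.03 when scaled to total counts. The transcription factor at the end of the route thus showed no change past the threshold, while its kinase Ikbke did. With a t distribution of 4 degrees of freedom, Zbp1, Ikbke and Rigi still passed, and Sting1 (adjusted p = 0.0947), Tlr3 (0.108), Cgas (0.135) and Mavs (0.156) did not.

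**Figure D3:**
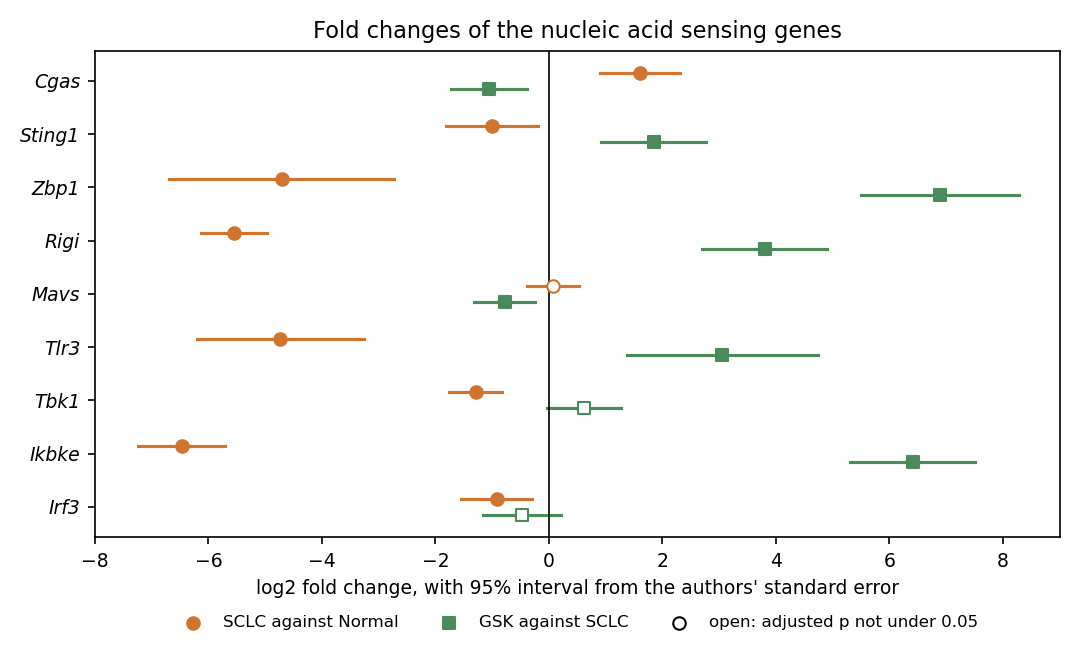
The log2 fold change of each of the 9 genes with its 95% interval from the authors' standard error, for SCLC against Normal (circles) and GSK against SCLC (squares); open symbols did not pass an adjusted p of 0.05. Ikbke lies at -6.47 and 6.41 and Cgas at 1.60 and -1.06; Irf3 with GSK lies at -0.47 as deposited and at 0.03 when scaled to total counts, and Mavs in SCLC at 0.08 as deposited and at -0.10 when centred.

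Divided by the merged exon length of each gene, the levels can be set beside each other roughly. That length takes in every annotated exon of a gene, 9018 bases for Ikbke and 3442 for Irf3. It can exceed the transcript expressed, more for some genes than for others, so the orders below are approximate. These are implied normalized counts per kilobase, with lengths from GENCODE M21 on build GRCm38. In Normal, Irf3 (624), Tbk1 (613), Mavs (502) and Rigi (349) stood highest, followed by Sting1 (168), Ikbke (102), Tlr3 (85.3), Zbp1 (43.2) and Cgas (35.1), per the authors' deposited table. In SCLC the order was Mavs (529), Irf3 (329), Tbk1 (251), Cgas (107), Sting1 (83.9), Rigi (7.47), Tlr3 (3.20), Zbp1 (1.65) and Ikbke (1.15), per the authors' deposited table for SCLC and Normal. Cgas was thus the lowest of the 9 in Normal and the highest of the sensors in SCLC. In GSK the order was Tbk1 (414), Mavs (333), Sting1 (323), Irf3 (255), Zbp1 (213), Rigi (113), Ikbke (105), Cgas (55.2) and Tlr3 (28.9), per the authors' deposited table for GSK and SCLC. Tbk1 and Irf3, which the routes share, and Mavs, the adaptor of RIG-I, lay among the 4 highest in all 3 groups. The tables give an error for a fold change and not for a level, so differences between neighbours in these orders were not tested. The tables were scaled separately: over 13634 genes the SCLC means of the second table lay above those of the first by a median of 0.11 on the log2 scale (SD 0.0084), and the 9 genes by 0.10 to 0.12.

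Trex1, the DNA exonuclease whose loss is known to set off cGAS, was listed at a mean of 0 in both tables and so had no fold change, per the authors' deposited table. In GENCODE M21 all of its 1147 merged exon bases (100%) lie inside exons of Atrip, a partner of the checkpoint kinase ATR, on the same strand. Atrip itself had an implied mean of 463 in Normal and 1252 in SCLC (log2 fold change 1.44 ± 0.28, adjusted p = 9.33e-07), and of 1346 in SCLC and 984 in GSK (-0.45 ± 0.28, adjusted p = 0.206), per the authors' deposited table of each pair. Of the exon bases of Atrip, 16.0% are shared with Trex1. How reads on shared bases were counted is not given in the sources used, so the 0 is a listing and was not read as absence of Trex1 RNA. Among the other 9 genes, no exon bases were shared with another gene on the same strand. Small parts of Tlr3 (7.32%), Cgas (4.87%), Irf3 (2.56%) and Ikbke (2.48%) lie opposite another gene's exons, and the use of strand in counting is not stated.

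Other genes of these routes, 165 in 9 lists, showed where the rest of the machinery stood. In SCLC against Normal 152 had an adjusted p, of which 27 rose, 85 fell and 40 did not pass, with a median log2 fold change of -1.03 against 0.10 over all genes tested, per the authors' deposited table. In GSK against SCLC 158 had an adjusted p, of which 73 rose, 21 fell and 64 did not pass, with a median of 0.65 against 0.24, per the authors' deposited table, and when scaled to total counts 96 rose and 10 fell. Over all genes tested, 25.3% rose and 25.1% fell in SCLC, and 21.6% rose and 15.5% fell with GSK, per the authors' deposited table of each pair. Each list count below is to be read beside these shares, and no difference from them was tested. These lists hold genes that immune cells express at high levels, and the immune marker sums of 5038, 127 and 28987 in Normal, SCLC and GSK stand beside every count that follows. Some calls on single genes named below ended with a t distribution of 4 degrees of freedom. In SCLC these were Trex2 (adjusted p = 0.0598), Stat2 (0.0680), Ticam1 (0.0720), Enpp1 (0.110), Aim2 (0.121) and Mlkl (0.172). With GSK they were Il10rb (adjusted p = 0.0548), Gsdmd (0.0658), Jak1 (0.0851), Insig1 (0.0875), Socs1 (0.0938), Ripk3 (0.0970), Ifih1 (0.103) and Dhx58 (0.123). Tested against a log2 fold change of 1, the calls on Stat2, Jak1, Ticam1, Enpp1, Dhx58, Aim2 and Mlkl in SCLC ended, as did those on Insig1, Socs1, Jak1, Ifih1 and Dhx58 with GSK.

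DNA sensing genes had both falls and rises in SCLC. Of 21 tested, 10 fell and 8 rose, with a median of -0.97, per the authors' deposited table. The falls were mainly genes of the interferon-raised PYHIN family: Ifi204 was 173-fold lower against a floor, Ifi203 133-fold and Mndal 74.8-fold (adjusted p = 6.86e-05, 4.02e-05 and 8.43e-09), per the authors' deposited table. Their 95% intervals start at 63.0-fold, 60.2-fold and 101-fold. Such bounds are set against a floor of 3 counts over the group, and they take the higher mean without its error. Where a 95% interval starts below such a bound, its start is given beside it. Aim2, which forms an inflammasome on DNA, also fell, from 27.7 to 5.68 (-2.29 ± 0.84, adjusted p = 0.0149), per the authors' deposited table. Prkdc, Lrrfip1 and Zcchc3, which are not PYHIN genes, were among the 10 falls too. The 8 rises were Dhx9, Ddx41, Mre11a, Xrcc6, Hmgb1, Hmgb2, Pqbp1 and G3bp1, which also act in DNA repair, chromatin or RNA handling. With GSK, 12 of 23 rose and 4 fell, with a median of 0.82, per the authors' deposited table. Prkdc and Lrrfip1 were among these rises, and Zcchc3 among the falls. Mndal was at least 1333-fold higher, Ifi203 at least 988-fold and Ifi204 at least 960-fold (adjusted p = 3.68e-23, 2.11e-22 and 1.65e-20), and Aim2 went from 6.12 to 451 (6.20 ± 0.63, adjusted p = 7.5e-21), per the authors' deposited table. Some PYHIN genes are close in sequence, so how reads were split among those is uncertain.

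Genes that handle cGAMP or STING had calls in both directions, which was also so over all genes tested and is not particular to this list. In SCLC 3 of 17 rose and 6 fell (median -0.18), against 25.3% and 25.1% of all genes tested, per the authors' deposited table. With GSK 3 of 17 rose and 7 fell (median -0.64), against 21.6% and 15.5%, per the authors' deposited table. Slc19a1, the folate carrier that imports cGAMP, rose from 348 to 3519 in SCLC (3.34 ± 0.28, adjusted p = 7.45e-31) and fell from 3795 to 1083 with GSK (-1.81 ± 0.28, adjusted p = 1.13e-09), per the authors' deposited table of each pair. Lrrc8c, a subunit of volume-regulated channels that pass cGAMP, fell from 11317 to 627 in SCLC (-4.17 ± 0.23, adjusted p = 3.03e-71), and the ubiquitin ligase Trim56 fell from 4324 to 766 (-2.50 ± 0.32, adjusted p = 5.74e-14), per the authors' deposited table. Enpp1, which degrades cGAMP outside cells, rose in SCLC from 68.0 to 193 (1.51 ± 0.53, adjusted p = 0.0103) and had 0.27 ± 0.53 with GSK (adjusted p = 0.733), per the authors' deposited table of each pair. Insig1, a membrane protein of the endoplasmic reticulum that also acts in sterol control, had -1.60 ± 0.39 with GSK (adjusted p = 0.000247), per the authors' deposited table.

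RNA sensing genes other than Rigi and Mavs were mostly lower in SCLC. There 15 of 27 fell and 4 rose, with a median of -1.96, per the authors' deposited table. The sister helicases of RIG-I were among the falls: Ifih1 (MDA5) went from 1272 to 147 (-3.11 ± 0.30, adjusted p = 4.37e-24) and Dhx58 (LGP2) from 297 to 61.4 (-2.27 ± 0.56, adjusted p = 0.000138), per the authors' deposited table. Eif2ak2, the kinase PKR, fell from 2591 to 608 (-2.09 ± 0.30, adjusted p = 1.98e-11), per the authors' deposited table. Of the oligoadenylate synthetase genes, Oasl2 went from 573 to 6.23 (-6.52 ± 0.74), Oas1a from 388 to 6.12 (-5.99 ± 0.68), and Oas2 was 65.0-fold lower against the floor (95% interval from 15.9-fold), with adjusted p of 1.4e-17, 2.29e-17 and 4.05e-07, per the authors' deposited table. With GSK 12 of 27 rose and 2 fell, with a median of 0.62, per the authors' deposited table. Oas2 was then 535-fold higher against the floor (95% interval from 170-fold), Oasl2 had 7.52 ± 0.69, Oas1a 6.32 ± 0.55, Dhx58 1.83 ± 0.56 and Ifih1 1.79 ± 0.49, with adjusted p of 5.83e-22, 1.57e-25, 8.31e-29, 0.00399 and 0.00109, per the authors' deposited table. Eif2ak2 had 0.40 ± 0.32 (adjusted p = 0.353) per the authors' deposited table and passed as higher when scaled to total counts (0.91, adjusted p = 0.0165). The Oas1 genes are close copies, so their reads may be split between them.

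The endosomal receptors and adaptors around Tlr3 were mostly lower in SCLC and mostly higher with GSK. In SCLC 14 of 16 fell and 2 did not pass, with a median of -2.37, and with GSK 12 rose and 4 did not pass, with a median of 3.19, per the authors' deposited table of each pair. Tlr8, a receptor of single-stranded RNA, was at least 41.4-fold lower in SCLC and at least 389-fold higher with GSK (adjusted p = 1.26e-08 and 1.92e-19), per the authors' deposited table of each pair. In SCLC Cd14 went from 1676 to 34.2 (-5.62 ± 0.66, adjusted p = 3.08e-16) and Irak2, a kinase of the MyD88 route, from 1409 to 45.1 (-4.97 ± 0.49, adjusted p = 6.11e-23), per the authors' deposited table. With GSK Tlr13, a mouse receptor of bacterial ribosomal RNA, was 1217-fold higher against the floor and the adaptor gene Tasl 123-fold higher (adjusted p = 3.09e-21 and 5.43e-11), per the authors' deposited table. Their 95% intervals start at 749-fold and 113-fold. Ticam1 encodes TRIF, the adaptor on which TLR3 depends. It fell in SCLC from 906 to 424 (-1.09 ± 0.32, adjusted p = 0.00151) and with GSK had -0.15 ± 0.37 (adjusted p = 0.795), per the authors' deposited table of each pair, a sign that turned to 0.36 when scaled to total counts and 0.10 when centred. Tlr7, Tlr8, Tlr9, Tlr13, Cd14 and Tasl are typical of myeloid or other immune cells.

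Nucleases and editors that keep self nucleic acid from being sensed had calls in both directions, which was also so over all genes tested. In SCLC 8 of 20 rose and 7 fell (median 0.34), against 25.3% and 25.1% of all genes tested, per the authors' deposited table. With GSK 4 of 21 rose and 5 fell (median 0.14), against 21.6% and 15.5%, per the authors' deposited table. Among the 8 rises in SCLC were the 3 subunits of RNase H2, which removes RNA from DNA, and among the 5 falls with GSK were these 3 subunits, with Rnaseh2a going from 3893 to 825 (-2.24 ± 0.28, adjusted p = 3.28e-14), per the authors' deposited table. Adarb1, an RNA editor of neurons, rose in SCLC from 138 to 2678 (4.28 ± 0.39, adjusted p = 4.4e-26), per the authors' deposited table. Adar, the editor that masks self RNA from MDA5, had 0.17 ± 0.35 in SCLC (adjusted p = 0.713) and -0.25 ± 0.35 with GSK (adjusted p = 0.634), per the authors' deposited table of each pair. Its sign was not stable: it was -0.01 in SCLC when centred, and with GSK 0.26 when scaled to total counts and 0.00049 when centred. Trex2, the relative of Trex1, went from 45.0 to 2.50 in SCLC (-4.17 ± 1.11, adjusted p = 0.000518), per the authors' deposited table. The endosomal exonuclease gene Pld4 had -6.70 ± 1.09 in SCLC (adjusted p = 4.37e-09) and 10.54 ± 0.84 with GSK (adjusted p = 2.51e-33), and Dnase1l3, which digests DNA outside cells, was 120-fold higher with GSK against the floor (95% interval from 55.2-fold, adjusted p = 1.9e-11), per the authors' deposited table of each pair.

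Around the kinases and IRF3, scaffolds, ubiquitin factors and related transcription factors were mostly lower in SCLC. Of 28, 15 fell and 3 rose (median -0.73), and with GSK 9 rose and 3 fell (median 0.37), per the authors' deposited table of each pair. Irf7, the interferon-raised relative of Irf3, fell in SCLC from 872 to 40.2 (-4.44 ± 0.69, adjusted p = 1.05e-09) and rose with GSK from 43.1 to 688 (3.996 ± 0.63, adjusted p = 3.98e-09), per the authors' deposited table of each pair. Irf5, a factor of myeloid cells, had -5.27 ± 0.70 in SCLC (adjusted p = 4.73e-13) and 7.79 ± 0.77 with GSK (adjusted p = 2.46e-22), per the authors' deposited table of each pair. Nfkb1 fell in SCLC from 4685 to 563 (-3.06 ± 0.43, adjusted p = 7.94e-12), and Tnfaip3, which encodes the deubiquitinase A20, rose with GSK from 112 to 7407 (6.05 ± 0.42, adjusted p = 8.13e-44), per the authors' deposited table of each pair.

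Partners of ZBP1 in cell death were mostly lower in SCLC and mostly higher with GSK. In SCLC 8 of 10 fell and Fadd, a death adaptor, rose (median -3.01), and with GSK 8 rose and Fadd fell (median 1.71), per the authors' deposited table of each pair. Ripk3, the kinase ZBP1 binds, fell in SCLC from 513 to 6.34 (-6.34 ± 1.47, adjusted p = 5.46e-05) and rose with GSK from 6.75 to 409 (5.92 ± 1.55, adjusted p = 0.000675), per the authors' deposited table of each pair. Mlkl, the executioner of necroptosis, fell in SCLC from 461 to 225 (-1.03 ± 0.46, adjusted p = 0.0463), a call that ended when scaled to total counts (adjusted p = 0.0716), and had 0.30 ± 0.39 with GSK (adjusted p = 0.585), per the authors' deposited table of each pair. Casp1 was at least 73.7-fold lower in SCLC and at least 564-fold higher with GSK (adjusted p = 1.55e-11 and 4.31e-19), Cflar had -3.53 ± 0.18 in SCLC (adjusted p = 7.07e-79), and the pore gene Gsdmd had 2.97 ± 0.60 with GSK (adjusted p = 5.86e-06), per the authors' deposited table of each pair.

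At the output of the route, the interferon genes of the list were at or near 0. Other interferon genes, among them Ifng and the remaining Ifna genes, were not in the list and were not examined. Ifnb1, Ifna1, Ifna2, Ifna4, Ifnk, Ifnl2 and Ifnl3 lay under the floor of 3 counts per group in every group, and Ifnb1 was listed at 0 in all 6 libraries of GSK against SCLC, per the authors' deposited tables. Of the 10 receptor and signalling genes tested, 7 fell in SCLC and 3 did not pass (median -1.54), and 6 rose with GSK and 4 did not pass (median 1.57), per the authors' deposited table of each pair. Jak1, a kinase of the interferon receptors, fell from 5161 to 1461 in SCLC (-1.82 ± 0.36, adjusted p = 1.8e-06) and rose from 1568 to 5764 with GSK (1.88 ± 0.45, adjusted p = 0.000186), per the authors' deposited table of each pair. Ifnlr1, the receptor subunit for lambda interferons, had -7.17 ± 0.60 in SCLC (adjusted p = 7.24e-32), and Stat2 went from 3046 to 717 (-2.09 ± 0.59, adjusted p = 0.00111), per the authors' deposited table. Il10rb (3.86 ± 0.68, adjusted p = 1.36e-07) and Socs1 (2.44 ± 0.62, adjusted p = 0.00049) rose with GSK, per the authors' deposited table.

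Genes that IRF3 can switch on directly gave a short list of 7. In SCLC the 4 with an adjusted p fell, namely Ifit3, Ccl5, Isg15 and Ifit2, with a median of -6.63, or -5.73 with Ccl5 at its bound, per the authors' deposited table. Ifit3 went from 2507 to 5.74 (-8.77 ± 0.65, adjusted p = 5.75e-40), Isg15 from 618 to 17.6 (-5.13 ± 0.69, adjusted p = 1.13e-12), and Ccl5 was 80.4-fold lower against the floor (95% interval from 49.9-fold, adjusted p = 9.61e-10), per the authors' deposited table. With GSK 7 of 7 rose, with a median of 4.05, per the authors' deposited table. Ccl5, a chemokine also made by lymphocytes and macrophages, was 1783-fold higher against the floor (95% interval from 1079-fold, adjusted p = 2.37e-22), Ifit1 went from 1.23 to 144 (6.86 ± 0.86, adjusted p = 4.35e-14), and Ifit3 from 6.23 to 259 (5.38 ± 0.69, adjusted p = 1.37e-13), per the authors' deposited table. Target RNAs, the sensors Rigi and Zbp1 and the kinase Ikbke were therefore higher than in SCLC in GSK libraries in which no interferon gene of the list rose above the floor, and in which Ptprc had an implied mean of 12562, per the authors' deposited table. The part of immune, fibroblast and endothelial RNA in these values was not tested.

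**Figure D4:**
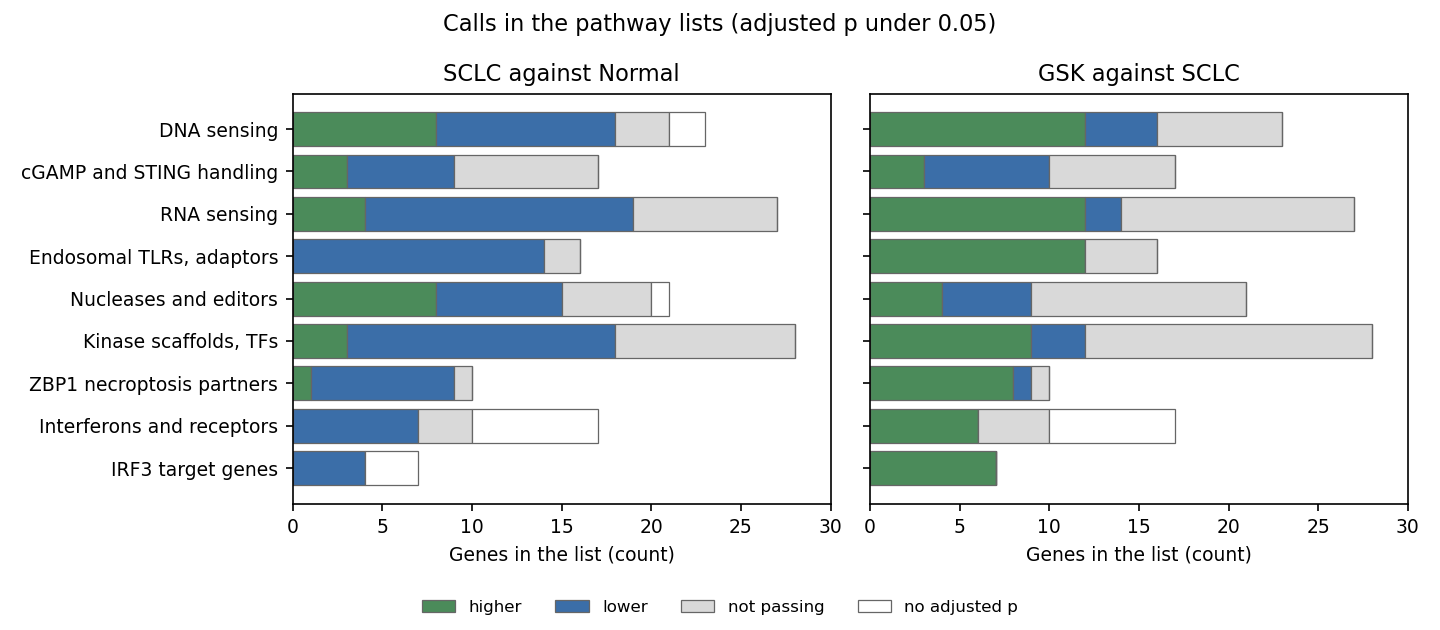
Number of genes in each of 9 pathway lists that were higher, lower, not passing or without an adjusted p at an adjusted p of 0.05, for SCLC against Normal (left) and GSK against SCLC (right). In SCLC 14 of 16 endosomal receptor and adaptor genes are lower, and with GSK 12 of 16 are higher. Over all genes tested, 25.1% are lower in SCLC and 21.6% higher with GSK. Scaled to total counts, calls over all 9 lists with GSK go from 73 higher and 21 lower to 96 and 10. Over the whole table they go from 6129 and 4404 to 8738 and 1970.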

How the data were processed

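RNA from 9 libraries, 3 each of Normal, SCLC and GSK organoids, was sequenced with a stranded mRNA kit on an Illumina NovaSeq, per the labels' protocols. Reads were aligned with STAR 2.7.9a and the build was GRCm39, per the submitters' processing notes. Which tool counted reads, with which annotation and use of strand, is not given in the sources used. The 2 deposited tables compare 3 libraries against 3 for 57010 Ensembl genes, with column names as DESeq2 writes them, per the file headers. The deposited signal column holds the authors' mean of normalized counts over 6 libraries. Log2 fold changes and standard errors are the authors' own. The deposited score column is the ratio of these, to within 8.9e-08. The deposited p-values are two-sided, and the authors' adjusted p-values matched a Benjamini-Hochberg adjustment to within 0.0035 on the log10 scale. The control of the second table was taken as SCLC, since the implied means of the 2 tables matched with an SD of 0.0084 on the log2 scale over 13634 genes whose means were 50 or more, against 2.02 for the other arm.

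Group means were computed from each mean and fold change, 95% intervals from the standard error, and bounds against a floor of 3 normalized counts in a group (a mean of 1), with Python 3.11.15, pandas 2.3.3 and SciPy 1.17.1. The bounds cover counting error only where they rest on the floor and leave out the error of the higher mean. A call was the authors' adjusted p under 0.05. Scripts were tested on simulated data. The genes and lists were chosen with earlier results of these data known, so no list test was run. Named were all 10 genes, up to 3 genes of each list, by size of change, that passed and had a mean of 20 or more, 2 per marker list, and 11 genes whatever their values; genes outside this rule are named where a list or a marker sum is described. Some genes that the rule names are not reported here. Mnda, whose row is that of Ifi211, was counted once. Alternatives were a stricter threshold, other sets of genes in the adjustment, a t distribution with 4 degrees of freedom, a null of 1 on the log2 scale, and scaling to total counts or to the median of genes whose mean was 100 or more.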

Additional observations from a re-analysis of the deposited data

How the results depend on the processing

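No paired analysis was possible because the tables used here hold comparisons and no values of single libraries. For the same reason no library was left out in turn, and the depth of single libraries is unknown. Of the 9 genes, Rigi, Ikbke and Zbp1 kept their calls under 7 of 7 alternatives in both comparisons. With a t distribution of 4 degrees of freedom, 3 of the 9 genes rose and 0 fell with GSK (5 and 2 at an unadjusted p under 0.05 in the authors' deposited table, against 1 and 7 in SCLC), while of the other pathway genes 16 rose and 56 fell in SCLC, and 35 rose and 2 fell with GSK; over all genes 3792 rose and 3780 fell in SCLC, and 1621 rose and 409 fell with GSK (79.9% higher). Tested against a log2 fold change of 1, 0 of the 9 genes rose and 4 fell in SCLC, 3 rose and 0 fell with GSK, and of the other pathway genes 7 rose and 50 fell in SCLC, and 45 rose and 3 fell with GSK; over all genes 2949 rose and 3391 fell in SCLC, and 3161 rose and 563 fell with GSK (84.9% higher). At an adjusted p under 0.01, 1 of the 9 genes fell with GSK. Scaled to total counts, 0 of the 9 genes fell with GSK, and 10 other pathway genes fell. Centred on genes with a mean of at least 100, 1 of the 9 genes fell with GSK. Among the 9 genes and the named genes, the only ones recomputed singly, signs turned for genes that did not pass before or after: scaled to total counts with GSK, Irf3 had 0.033, Adar 0.26 and Ticam1 0.36; centred, Mavs had -0.10 and Adar -0.011 in SCLC, and Adar had 0.00049 and Ticam1 0.10 with GSK. The cause of these shifts is the construction of the alternatives: stricter tests pass fewer genes, and the scalings add a constant to every fold change of a table.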
